A study of Mus musculus with 3 samples.

Results

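The replication-dependent histone genes were taken as every gene whose symbol begins Hist1h to Hist4h followed by the class name H1, H2A, H2B, H3 or H4. This rule found 67 genes among the 32285 listed. They comprise 6 genes of the linker histone H1, 18 of H2A, 18 of H2B, 12 of H3 and 13 of H4. The pattern also takes in genes known mainly from testis or as replication-independent copies. Of these, 4 were listed here, namely Hist1h1t, Hist1h2aa, Hist1h2ba and Hist3h2ba, and the list may not be complete.

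The cells were E14 mouse embryonic stem cells (129/Ola background), kept in serum and leukemia inhibitory factor. From 24 h after seeding, 1 culture received 250 µg/mL cycloheximide, which blocks translation elongation, for 3 h in 0.007% ethanol, and 1 received the same for 6 h. The control culture received ethanol alone for 6 h, so the 3 h culture had no vehicle control of its own duration. All 3 cultures were trypsinised, frozen and thawed before droplet-based 3′ single-cell sequencing, which counts each captured polyadenylated molecule once through a unique molecular identifier (UMI). Each group is 1 library, so no difference between conditions could be tested, and cells of a library are not replicates. All intervals given are exact 95% intervals for counting error only. They leave out variation between cultures and between library preparations.

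Histones package DNA into nucleosomes, with H2A, H2B, H3 and H4 forming the core particle and H1 binding the linker DNA. Replication-dependent histone genes are expressed mainly in S phase, and their mRNAs normally end in a conserved stem-loop bound by Slbp in place of a poly(A) tail. The mRNAs are degraded quickly when DNA synthesis stops, a process in which translation of the message takes part. A method that primes on poly(A) therefore sees the polyadenylated or internally primed part of these transcripts, not their whole pool.

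The 16-base word most often shared within 120 bases after the stop codons of these genes is the histone stem-loop, and it is shown because the end of a transcript bears on whether a poly(A)-primed assay captures it. The exact word occurred in 25 members, and 40 of 67 had it with at most 2 mismatches. Of the other 27, 18 have an annotated transcript that itself ends within 120 bases of the stop codon. Only the transcript with the longest stretch after the stop codon was searched in each member, so a stem-loop in another transcript would be missed. The forms are given 5′ to 3′ in DNA letters from GENCODE M21 transcripts, and capitals mark bases that differ from the most common form.
Most common form, 25 members of classes H1, H2A, H2B and H3: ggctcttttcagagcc
Form of 7 H4 members, including Hist1h4d and Hist1h4h: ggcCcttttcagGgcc
Form of 6 members, including Hist1h3c, Hist1h3e and Hist1h3f: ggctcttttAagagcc
Form of Hist2h2ac: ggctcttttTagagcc
Form of Hist1h3g: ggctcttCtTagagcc
The pair of capitals in the H4 form stands on opposite arms of the stem.

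Barcodes with at least 15000 UMIs and 1 to 20% mitochondrial UMIs were kept as cells. In the order control, 3 h and 6 h, this left 2187, 1739 and 2554 cells, with medians of 43160, 51726 and 46200 UMIs and totals of 111447486, 106842407 and 140321458 UMIs. Values set in threes below keep this order. No barcode was shared by all 3 libraries, and the pairs of libraries shared 3, 3 and 1 barcodes. All 10 embryonic stem cell markers checked were above 10 CPM on average (UMI counts scaled so that every library has the same total). The 7 fibroblast markers summed to 2.48, 1.62 and 1.29 CPM in control, 3 h and 6 h, with 3 of them, including Col3a1, at 0 in all libraries. Primitive endoderm markers summed to 144, 148 and 158 CPM, almost all of it Sparc, and 2-cell-like markers summed to 0.592 CPM or less.

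Histone transcripts made up 2754, 6522 and 6932 CPM of the 3 libraries. The sum was 2.37-fold higher than the control at 3 h (log2 ratio 1.24, 1.24 to 1.25) and 2.52-fold higher at 6 h (1.33, 1.33 to 1.34). Both comparisons share the control library. CPM gives no amount per cell. On the TMM scale, which sets most genes to no change, the log2 ratios were 1.07 and 1.05, and on the scale of mean UMIs per cell they were 1.51 and 1.44. Between 3 h and 6 h the family sum moved by a log2 ratio of 0.088, less than the difference between scales.

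Of the 67 members, 38 reached 10 CPM on average. At 3 h, 30 of these 38 were at least 2-fold higher than in the control, where 4.32% of all 7608 genes over the same floor were. At 6 h the count was 31 of 38, where the share of all genes was 8.65%. No member over the floor was 2-fold lower at either time, against 0.513% and 2.41% of all genes. Over the 38 members the log2 ratios had a median of 1.98, then 2.14, beside 0.11 and 0.17 over all genes. Members that passed the floor partly through their treated level are among these 38, so the counts describe them and not all 67. The interval of the ratio lay above equality in all 38 at 3 h and in 37 at 6 h, where 56.8% and 59.4% of all genes over the floor had such an interval. It lay below equality for Hist1h1b alone, at 6 h, where 28.6% (3 h) and 32.1% (6 h) of all genes did. TMM scaling lowered the median of all genes by 0.17 at 3 h and 0.29 at 6 h. On that scale Hist1h1b also fell below the control at 3 h, and Hist1h3b at 6 h. Mean UMIs per cell raised the median by 0.27 and 0.11 and left the direction of every one of the 38 as it was. The counts past 2-fold moved as well. With TMM factors 30 were past it at 3 h and 28 at 6 h, where 2.89% and 4.68% of all genes were, and with mean UMIs per cell 33 and 31, where 9.33% and 11.2% were.

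Below the floor stood 29 members. The interval of the ratio lay above equality in 23 of them at 3 h and in 24 at 6 h. Of all 15515 genes under the floor with a UMI in any library, 22.7% and 33.4% had such an interval. No member under the floor had an interval below equality, where 8.56% and 10.1% of these genes did. Hist1h2bq, Hist1h4m and Hist2h2aa2 had no UMI in the control, which allows a level of up to 0.0269 CPM (3 counts), and had 4 UMIs or fewer in any library.

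By class, H2A was the most abundant in every library, and H2B differed most from the control. Summed H2B stood at 130, 881 and 1325 CPM, 6.77-fold and 10.2-fold higher. H4 stood at 98.3, 380 and 393 CPM, 3.87-fold and 4.0-fold higher. H3 stood at 149, 523 and 617 CPM, 3.52-fold and 4.14-fold higher. These 3 core classes were low in the control compared with their treated levels. H2A stood at 1582, 3424 and 3474 CPM, 2.16-fold and 2.20-fold higher. H1 stood at 795, 1314 and 1123 CPM, 1.65-fold and 1.41-fold higher. H2A and H1, the classes that held most control UMIs, had the smallest ratios of these sums, which include the leading genes Hist1h2ap and Hist1h1b. The log2 ratios behind these folds are known within 0.031 by counting error for the H4 class and more closely for the other 4.

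**Figure D1:**
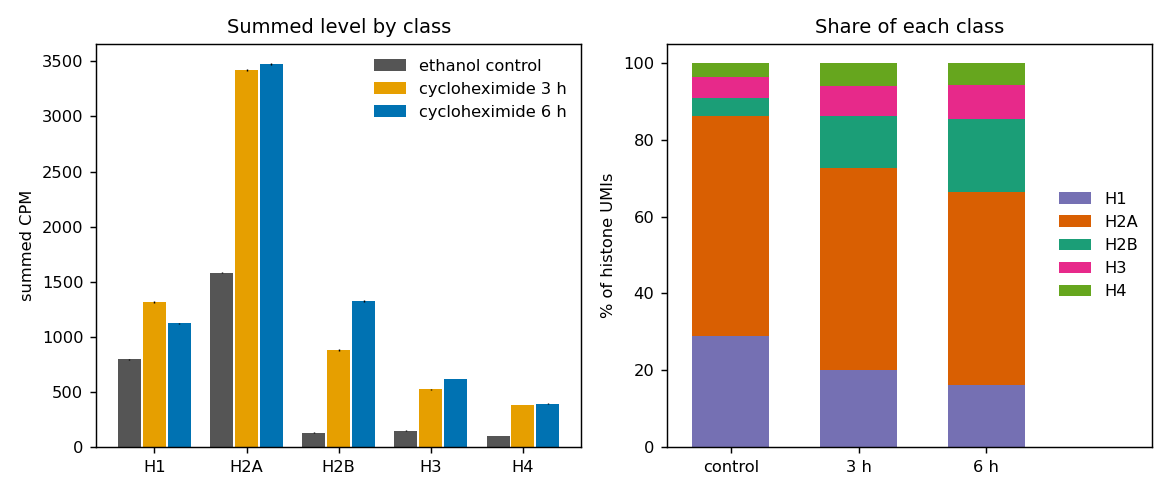
Left, summed CPM (vertical axis, from 0) of each histone class in the 3 libraries, with exact Poisson 95% intervals of counting error. Right, the percentage of histone UMIs in each class. H2B held 4.72% of histone UMIs in the control, and 13.5% (3 h) and 19.1% (6 h) after cycloheximide.

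The makeup of the histone UMIs differed accordingly. H1 held 28.9%, 20.1% and 16.2% of them. H2A held 57.4%, 52.5% and 50.1%. H3 held 5.41%, 8.03% and 8.90%, and H4 held 3.57%, 5.83% and 5.67%. Each of these shares has an exact Clopper-Pearson interval within 0.18 percentage points. H1 and H2A thus made up less of the histone UMIs in the treated libraries, and the other core classes more. Hist1h2ap alone held 45.1%, 30.1% and 26.4% of histone UMIs, so the lower H2A share lay in this gene.

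The leading gene of a class weighed on its sum. Hist1h1b held 57.6% of H1 UMIs in the control and 25% at 6 h, and Hist1h2ap held 78.4% and 52.7% of H2A UMIs. Without Hist1h1b, the H1 sum was 337, 838 and 842 CPM, log2 ratios of 1.31 and 1.32. Without Hist1h2ap, the H2A sum was 341, 1461 and 1642 CPM, ratios of 2.10 and 2.27. The remaining H2A genes together therefore stood 4.29-fold and 4.82-fold above the control. Without Hist1h2bc, the H2B sum was 88.1, 410 and 530 CPM, ratios of 2.22 and 2.59. Leaving out Hist1h3c gave 1.69 and 1.83 for H3, and leaving out Hist1h4d gave 1.65 and 1.63 for H4. The gap between classes was thus smaller once the gene of highest mean CPM over the 3 libraries was set aside in each. In H2B and H4 that gene also had the highest 6 h ratio over the floor, so the narrowing follows in part from the choice.

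Linker histone genes differed in direction at 6 h. Hist1h1b, a somatic H1 subtype on the minus strand of chr13:21779883-21780625, stood at 458, 476 and 281 CPM. Against the control this is a log2 ratio of 0.06 (0.04 to 0.07) after 3 h and -0.70 (-0.72 to -0.69) after 6 h. It was the one member over the floor with a lower level at 6 h than in the control, and the value at 3 h became -0.12 on the TMM scale. Hist1h1c, another somatic H1 subtype (chr13:23738808-23740367, plus strand), stood at 58.7, 228 and 225 CPM, ratios of 1.96 and 1.94. It was the H1 gene with the largest ratio.

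Hist1h1e stood at 139, 354 and 393 CPM, ratios of 1.35 and 1.5. One end of its annotated gene (chr13:23620629-23622558, minus strand) overlaps that of Hist1h2be (chr13:23583670-23621124) on the same strand, so its value is uncertain. Hist1h1a stood at 69.4, 132 and 120 CPM (0.93 and 0.79), and Hist1h1d at 69.8, 122 and 103 CPM (0.80 and 0.56). Both were higher than the control by less than 2-fold. Hist1h1t, the testis H1, was near 0 with 0.431, 0.730 and 0.798 CPM. Of the class, 2 of the 5 genes over the floor, Hist1h1c and Hist1h1e, were at least 2-fold higher at each time. The share of all genes over the floor was 4.32% at 3 h and 8.65% at 6 h.

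**Figure D2:**
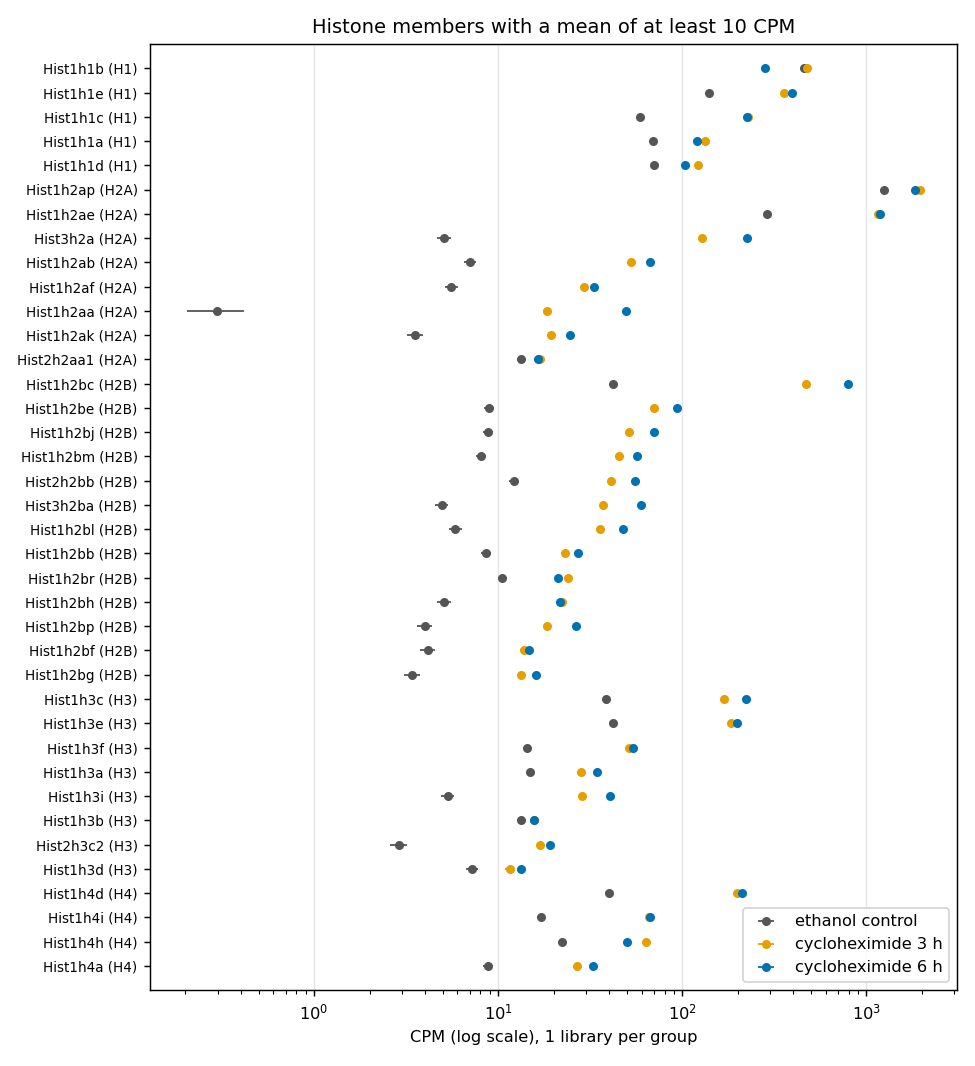
CPM (horizontal log axis) of the 38 members that averaged at least 10 CPM, ordered by class and mean level, in the control (grey), 3 h (orange) and 6 h (blue) libraries, with exact Poisson 95% intervals. Only Hist1h1b has its 6 h point to the left of its control point.

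H2A genes spanned the widest range of ratios. Hist1h2ap (chr13:21833026-21833507, minus strand) alone held 45.1%, 30.1% and 26.4% of all histone UMIs. It stood at 1241, 1963 and 1832 CPM, log2 ratios of 0.66 and 0.56. All of the 90-base words in its last 400 bases occur in another member as well. Reads from near-identical copies may therefore be counted in it or dropped, and its level is uncertain. Hist1h2ae (chr13:23570517-23571220, minus strand) stood at 289, 1154 and 1182 CPM, ratios of 2.00 and 2.03. Unlike Hist1h2ap, it was about 4-fold higher at both times.

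Hist3h2a, the H2A gene of the small Hist3 cluster (chr11:58954685-58956830, plus strand), stood at 5.07, 129 and 224 CPM. Its log2 ratios were 4.66 (4.54 to 4.79) and 5.47 (5.35 to 5.59), or 44.2-fold at 6 h. It overlaps Trim17 on the same strand, and part of its UMIs could belong to that gene. Hist1h2aa, known as a testis gene (chr13:23934462-23934851, plus strand), had 33, 1958 and 6903 UMIs, which is 0.296, 18.3 and 49.2 CPM. Its ratios were 5.93 (5.46 to 6.49) and 7.35 (6.89 to 7.92). Of the 38 members over the floor, which Hist1h2aa passed through its treated levels, it was the one at least 2-fold higher at 6 h than at 3 h (log2 ratio 1.42), where 0.145% of all genes over the floor were. Its neighbour Hist1h2ba, under the floor, had 1.06 between these times.

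Hist1h2ab stood at 7.03, 52.6 and 66.9 CPM, ratios of 2.90 and 3.25. Hist2h2aa1, from the Hist2 cluster, stood at 13.3, 16.9 and 16.4 CPM and had the smallest 6 h ratio of the H2A genes over the floor, 0.31 (0.21 to 0.40). Its twin Hist2h2aa2 had 4 UMIs in all, and the last 400 bases of Hist2h2aa1 consist wholly of shared words, so reads of this pair could not be told apart. Of the 8 H2A genes over the floor, 6 were at least 2-fold higher at each time, where 4.32% and 8.65% of all genes were.

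All 13 H2B genes over the floor were at least 2-fold higher at both times in CPM, where 4.32% (3 h) and 8.65% (6 h) of all genes were. With TMM factors 12 of them were at 6 h, where 4.68% of all genes were. The floor is a mean over the 3 libraries. Several of the 13 passed it only through their treated levels, such as Hist1h2bl (5.85 CPM in the control) and Hist3h2ba (4.93 CPM). The count therefore leans on the floor, as do the counts past 2-fold given for H2A, H3 and H4. Hist1h2bc (chr13:23684199-23692908, plus strand) stood at 42.0, 471 and 795 CPM. Its log2 ratios were 3.49 (3.44 to 3.53) and 4.24 (4.20 to 4.29), an 18.9-fold difference at 6 h. It took 32.3% of H2B UMIs in the control and 60.0% at 6 h. Its last 400 bases hold no 90-base word of another member, while 26.1% of such words over its whole transcript are shared. Where its UMIs fall along the transcript was not tested.

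Hist1h2be stood at 8.88, 70.1 and 93.4 CPM, ratios of 2.98 and 3.39. Hist1h2bj stood at 8.77, 51.4 and 70.2 CPM (2.55 and 3.00), and Hist1h2bm at 8.07, 45.5 and 56.6 CPM (2.50 and 2.81). These 3 genes were all higher at 6 h than at 3 h. Hist1h2br had the smallest ratio of the class, with 10.5, 23.8 and 21.2 CPM, ratios of 1.18 and 1.01, and its 6 h value was 0.72 with TMM factors.

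Among H3 genes, Hist1h3e and Hist1h3c were the highest. Hist1h3c stood at 38.4, 168 and 223 CPM, ratios of 2.12 and 2.53. Hist1h3e stood at 42.1, 184 and 198 CPM, ratios of 2.13 and 2.23. Hist1h3f stood at 14.3, 51.0 and 54.2 CPM (1.83 and 1.92). All of these were at least 3-fold above the control at both times. Hist1h3i had the largest 6 h ratio, with 5.32, 28.5 and 40.3 CPM (2.42 and 2.92). Hist1h3a stood at 15.0, 28.1 and 34.3 CPM (0.91 and 1.20), and its 6 h value was 0.91 with TMM factors. Hist1h3b stood at 13.3, 15.6 and 15.7 CPM (0.23 and 0.23), and its 6 h ratio was -0.055 on the TMM scale. Of the 8 H3 genes over the floor, 5 at 3 h and 6 at 6 h were at least 2-fold higher. Among all genes over the floor the shares were 4.32% and 8.65%.

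The 4 H4 genes over the floor were at least 2-fold higher at both times in CPM, where 4.32% and 8.65% of all genes were. Hist1h4d stood at 39.9, 197 and 212 CPM, ratios of 2.30 and 2.41. Hist1h4i stood at 17.0, 65.8 and 66.4 CPM (1.96 and 1.97), and Hist1h4a at 8.81, 26.9 and 32.8 CPM (1.61 and 1.90). Hist1h4h stood at 22.2, 63.4 and 49.8 CPM, so its ratio was larger at 3 h (1.51) than at 6 h (1.16). With TMM factors its 6 h ratio was 0.88, under 2-fold. The other 9 H4 genes were under the floor.

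**Figure D3:**
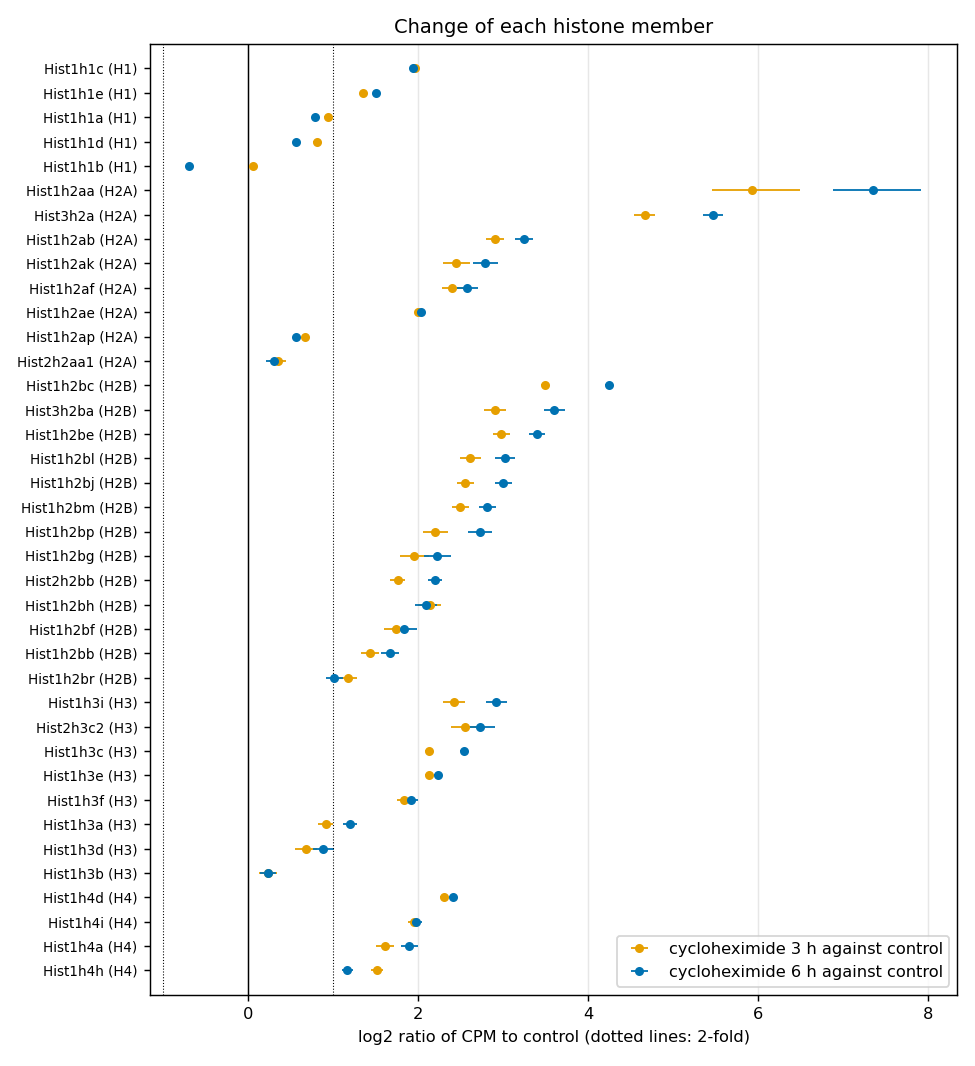
Log2 ratio of CPM to the control (horizontal axis) at 3 h (orange) and 6 h (blue) for the 38 members, ordered by class and 6 h ratio, with exact conditional 95% intervals of counting error; dotted lines mark 2-fold. The points run from -0.70 for Hist1h1b to 7.35 for Hist1h2aa, both at 6 h.

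From 3 h to 6 h the CPM interval lay above equality in 26 of the 38 members, where 47.6% of all genes over the floor did. It lay below equality in 6, where 32.8% of all genes did, namely Hist1h1a, Hist1h1b, Hist1h1d, Hist1h2ap, Hist1h2br and Hist1h4h. The counts turn on the scale: 29 of the 38 ratios were above 0 in CPM, 22 with TMM factors and 21 with mean UMIs per cell. Summed H2B was the class with the largest log2 ratio from 3 h to 6 h, 0.59, and summed H1 had -0.23. Without Hist1h2bc the H2B value was 0.37, and without Hist1h1b the H1 value was 0.007 (-0.005 to 0.020). H3 had 0.24, H2A 0.02 and H4 0.05, and the values of H2A and H4 lie within the 0.11 by which TMM scaling shifts this comparison.

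The genes lie in 4 genomic clusters. Hist1, on chr13, holds 54 members and 2702, 6248 and 6520 CPM in control, 3 h and 6 h (log2 ratios 1.21 and 1.27). Hist2, on chr3, holds 10 members and 40.2, 106 and 125 CPM (1.40 and 1.63). Hist3, on chr11, holds Hist3h2a and Hist3h2ba and had 10.0, 165 and 284 CPM, 16.6-fold and 28.4-fold higher. Hist4, on chr6, is Hist4h4 alone, at 1.55, 2.27 and 3.01 CPM (0.54 and 0.96). The Hist3 ratio is mainly that of Hist3h2a: Hist3h2ba alone stood at 4.93, 36.9 and 59.9 CPM, ratios of 2.90 and 3.6.

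Hist1 is interrupted by gaps of over 100 kb, which split it into 4 blocks. The block at chr13:21715763-21837530, with 18 members including Hist1h2ap and Hist1h1b, had 1745, 2641 and 2361 CPM (0.60 and 0.44). The block at chr13:23531050-23764406, with 29 members including Hist1h2ae and Hist1h2bc, had 926, 3458 and 3953 CPM (1.90 and 2.09). The first block held 63.4% of histone UMIs in the control and 34.1% at 6 h, and the second 33.6% and 57.0%. Without Hist1h2ap, the first block had 504, 678 and 529 CPM, log2 ratios of 0.43 and 0.07, most of it Hist1h1b. Over members past the floor the order of the blocks was the other way round. The 8 members of the first block over the floor had median log2 ratios of 2.31 and 2.76. Of these, 6 were at least 2-fold higher at each time, where 4.32% and 8.65% of all genes were. The 22 of the second block had medians of 1.89 and 1.93. In both blocks some members passed the floor only through their treated levels, such as Hist1h2bl (5.85 CPM in the control) and Hist1h2ak (3.54 CPM) in the first. The order of these medians may therefore rest on the floor. The 5 members at chr13:22035164-22043676 summed to 31.0, 128 and 152 CPM (2.04 and 2.29). The outlying pair Hist1h2ba and Hist1h2aa, at chr13:23933773-23934851, summed to 0.350, 20.8 and 54.2 CPM, both genes being nearly silent in the control.

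Many H2A and H2B genes stand head to head, and 13 such divergent pairs with starts under 1000 bases apart were found, 12 of them an H2A with an H2B gene. Pair members did not have equal levels or ratios. Hist1h2ac stood at 2.40, 4.13 and 5.07 CPM (0.78 and 1.08) beside its partner Hist1h2bc, described above at 3.49 and 4.24. Hist1h2ag had ratios of 0.27 and 0.66 beside 2.55 and 3.00 in Hist1h2bj. In contrast, Hist1h2ae and Hist1h2bg, 175 bases apart, had ratios of 2.00 and 1.95 at 3 h and 2.03 and 2.22 at 6 h, although Hist1h2bg reached only 16 CPM. Both members of the testis pair, Hist1h2ba (0.054, 2.42 and 5.05 CPM) and Hist1h2aa, had ratios above 5. With 6 control UMIs, the Hist1h2ba fold at 6 h of 93.9 is imprecise (log2 interval from 5.42).

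Promoter windows from 250 bases before to 50 bases after the start were matched for 62 members in the RefSeq table of GRCm38.p6. Both strands were searched for TATAAA (the TATA box), CCAAT (the CCAAT box) and ATTTGCAT (the octamer). Windows of divergent partners can overlap, as those of Hist1h2ae and Hist1h2bg do, so the same match can count for both genes. The 62 windows are therefore not all separate sequences. TATAAA was present in 35 of 62 (56.5%), against 14.2% of 27025 genes in the table. CCAAT was present in 53 of 62 (85.5%), against 37.9%. It was found in every matched H1, H2A, H2B and H3 window but in 3 of 12 for H4. ATTTGCAT was present in 13 of 62 (21%), against 1.75%, in 7 of 18 H2A and 6 of 16 H2B windows and in no other class. These 3 windows are shown to compare the most abundant H2A gene in the control, the H2A gene with the next highest level and the leading H4 gene; capitals mark the motifs on either strand.
Hist1h2ap, chr13:21833426-21833725, minus strand: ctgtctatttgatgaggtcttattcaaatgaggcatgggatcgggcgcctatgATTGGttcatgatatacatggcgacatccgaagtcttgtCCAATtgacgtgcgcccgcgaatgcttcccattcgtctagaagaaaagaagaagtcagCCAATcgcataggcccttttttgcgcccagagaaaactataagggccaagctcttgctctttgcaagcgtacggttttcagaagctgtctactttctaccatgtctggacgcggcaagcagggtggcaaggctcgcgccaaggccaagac
Hist1h2ae, chr13:23571171-23571470, minus strand: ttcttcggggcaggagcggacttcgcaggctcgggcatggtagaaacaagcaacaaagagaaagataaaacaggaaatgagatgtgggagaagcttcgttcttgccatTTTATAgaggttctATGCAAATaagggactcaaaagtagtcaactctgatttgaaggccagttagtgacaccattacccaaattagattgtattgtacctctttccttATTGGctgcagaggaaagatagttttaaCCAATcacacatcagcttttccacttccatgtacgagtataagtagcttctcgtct
Hist1h4d, chr13:23581318-23581617, plus strand: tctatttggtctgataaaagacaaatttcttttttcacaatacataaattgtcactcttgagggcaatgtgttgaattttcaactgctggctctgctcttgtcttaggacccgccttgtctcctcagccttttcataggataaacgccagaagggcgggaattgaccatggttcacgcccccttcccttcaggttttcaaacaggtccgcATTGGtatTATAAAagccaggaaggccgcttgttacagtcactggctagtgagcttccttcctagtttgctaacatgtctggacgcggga
The Hist1h2ae window holds CCAAT on both strands, the octamer and a TATAAA on the strand of its divergent partner, the Hist1h2ap window holds CCAAT alone, and the Hist1h4d window holds TATAAA and CCAAT. A match of letters is a description of the window and not evidence of a bound factor.

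Members also differed in how their annotated transcripts end. In 21 members the longest annotated end lies within 100 bases of the stem-loop, and in 19 it runs over 100 bases past it, as in Hist1h1d with 4931 bases after the stop codon. Among genes over the floor, 11 of the first kind had median log2 ratios of 1.51 (3 h) and 1.67 (6 h). The 14 over the floor with a longer end had medians of 2.06 and 2.16. The difference between the kinds was larger in the sums, 0.83 and 0.81 against 1.90 and 2.02. Without Hist1h2ap, which held 88.6% of the control sum of the first kind, that sum had ratios of 1.70 and 1.96, so the gap between the kinds was smaller without this gene. In 9 members the transcript searched had no stem-loop word in the 120 bases after the stop codon. Their sums were 86.1, 615 and 953 CPM (2.84 and 3.47), led by Hist1h2bc. Without Hist1h2bc these ratios were 1.72 and 1.85. Only the transcript with the longest stretch after the stop codon was searched, with at most 2 mismatches, which the H4 form already uses up. A stem-loop in another transcript or with more differences would be missed, so these 9 are not shown to lack one. The 18 members whose annotation stops within 120 bases of the stop codon without the word, Hist1h1b among them, say nothing on this feature.

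Each cell was then thinned to 15000 UMIs to compare histone UMIs per cell at equal depth; no kept cell was shallower. The median was 43, 96 and 99 histone UMIs. The 10th percentile was 5, 24 and 26 UMIs, and the 90th was 84, 167 and 188. Cells at the low end thus differed by a larger factor than cells at the high end. The ratio of the 90th to the 10th percentile was 16.8, 6.96 and 7.23. Free RNA in the droplets, described below, was not subtracted, and its part in the low end was not measured. Of the treated cells, 80.6% at 3 h (78.6% to 82.4%) and 78.7% at 6 h (77.1% to 80.3%) were above the control median. The squared coefficient of variation beyond counting noise was 0.453, 0.302 and 0.365.

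**Figure D4:**
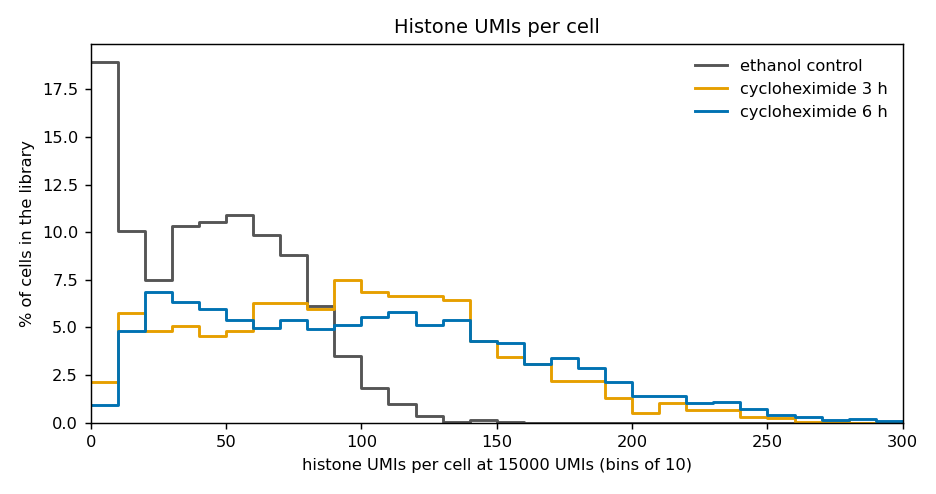
Percentage of cells (vertical axis) by histone UMIs per cell in bins of 10 (horizontal axis), each cell thinned to 15000 UMIs; 2187 control cells (grey), 1739 at 3 h (orange) and 2554 at 6 h (blue). In the control, 18.9% of cells have under 10 histone UMIs, against 2.13% at 3 h and 0.940% at 6 h. The treated curves reach beyond 200 UMIs. Free RNA was not subtracted.

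Cells with no UMI of a class were then counted. H2B was at 0 in 20.1%, 0.920% and 0.470% of cells. H3 was at 0 in 20.3%, 4.60% and 3.72%, and H4 in 28.8%, 3.62% and 3.33%. H1 was at 0 in 8.87%, 0.690% and 0.744%, and H2A in 2.97%, 0.748% and 0.313%. Cells without a UMI of a class were thus fewer in both treated libraries for all 5 classes, in droplets that also held free RNA.

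Free RNA, read from barcodes of 10 to 100 UMIs, held 1695, 5022 and 6116 CPM of histone transcripts, and its part in the shares of cells was not measured directly. If 10% of each cell's UMIs were free RNA, 0.582%, 14.9% and 25.8% of cells would carry a Hist3h2a UMI. The measured shares were 7.82% (6.73% to 9.02%), 72.5% (70.3% to 74.5%) and 81.7% (80.2% to 83.2%), all well above that. For Hist1h2bc the measured shares were 42.2%, 95.1% and 97.6%, beside 5.12%, 47.2% and 73.0% from such free RNA. For Hist1h2aa they were 0.686%, 16.6% and 32.9%, beside 0.042%, 1.84% and 6.37%. For Hist1h1b they were 84.0%, 89.8% and 84.1%, beside 32.4%, 38.8% and 34.5%; shares this high say little about level. Subtracting 10% of free RNA from the sums left the family log2 ratios at 1.22 and 1.29.

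Histone UMIs were set against the summed UMIs of fixed cell-cycle lists in the same thinned cells, which share the cell's total. Over 2187 control cells, Spearman's rho of the histone sum was 0.25 with the S phase list and -0.57 with the G2M list. The G2M values were -0.31 over 1739 cells at 3 h and -0.045 over 2554 cells at 6 h. The S phase values were 0.18 and 0.17. The ordering of cells by histone UMIs along the G2M list was thus present in the control, smaller at 3 h and nearly absent at 6 h.

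Each library's cells were also split into 4 equal groups ranked by the G2M list. In the control, the mean was 63.5 histone UMIs in the lowest group, then 54.4, 36.0 and 20.5 in the highest. At 3 h the means were 115, 107, 91.1 and 73.2, and at 6 h 97.7, 115, 115 and 85.0. Control cells high in G2M transcripts thus had fewer histone UMIs than those low in them, whereas at 6 h the end groups were closer. Hist3h2a had no such order in the control, with means of 0.097, 0.062, 0.066 and 0.099 UMIs. Over single members in control cells, rho with the G2M list was -0.61 for Hist1h2ap, -0.49 for Hist1h1b, -0.48 for Hist1h2ae, -0.20 for Hist1h2bc and -0.001 for Hist3h2a, and it is limited for the low genes by few UMIs. The mean UMIs of the lists themselves also differed between libraries: the S phase list had 83.2, 97.6 and 104 per cell and the G2M list 139, 125 and 121. Their part in the histone differences was not tested.

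**Figure D5:**
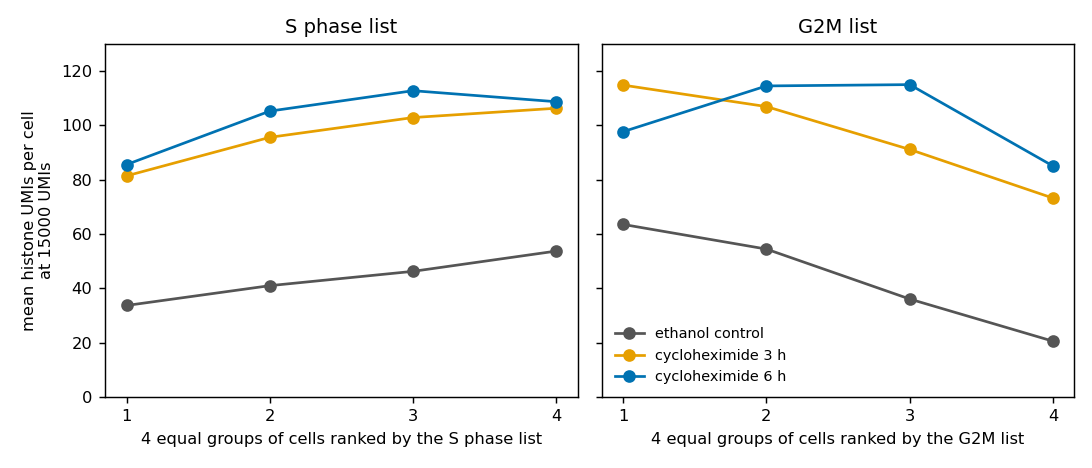
Mean histone UMIs per cell at 15000 UMIs (vertical axis) in 4 equal groups of each library's cells, ranked from low (1) to high (4) by the S phase list (left) and the G2M list (right). In the control the mean runs from 63.5 to 20.5 along the G2M list, and every treated group lies above the control group of the same rank.

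Genes that make, process or package histones were read from fixed lists for comparison. Of 24 factors of histone transcript synthesis, processing and decay over the floor, none was at least 2-fold higher at 3 h and 1 was at 6 h. Past the same fold were 4.32% (3 h) and 8.65% (6 h) of all genes over the floor. The 24 factors had median log2 ratios of 0.11 and 0.04. Slbp, which binds the stem-loop, stood at 124, 177 and 195 CPM (log2 ratios 0.52 and 0.65). Npat, the coactivator of histone genes, stood at 29.2, 26.9 and 26.9 CPM. The gene past 2-fold at 6 h was Hinfp, a transcription factor of H4 genes, at 11, 21 and 26.4 CPM, named after its value was seen. This list moved little beside the histone genes.

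Most of the 11 replacement histone variants listed are also made outside S phase, from polyadenylated mRNAs. Of the 11, H1f0 was at least 2-fold higher at 3 h (15.2, 58.8 and 81.2 CPM, ratios of 1.95 and 2.41). At 6 h H1fx was as well, at 31.3, 46.2 and 70.5 CPM. Both are linker variants named after their values were seen. At these times 4.32% and 8.65% of all genes over the floor were at least 2-fold higher. H2afz stood at 3229, 3191 and 2883 CPM and H3f3a at 1411, 1386 and 1481 CPM, while H3f3b stood at 1438, 1904 and 2318 CPM and H2afx at 551, 638 and 549 CPM. The medians of the 11 were 0.13 and 0.23. Of 12 histone chaperones, none was 2-fold higher at 3 h and 1, Asf1a, was at 6 h (99.5, 146 and 206 CPM), with medians of 0.07 and 0.03. The S phase list had 1 of 42 genes at least 2-fold higher at 3 h, beside 4.32% of all genes over the floor. At 6 h it had 5, beside 8.65%. Its median log2 ratios were 0.31 and 0.47. Pcna, the replication clamp in that list, stood at 295, 309 and 300 CPM. The G2M list had medians of -0.15 and -0.24 over 54 genes, and Mki67, a proliferation marker in it, stood at 120, 70.9 and 65.9 CPM.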

How the data were processed

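The deposited matrices hold UMI counts that the authors made with Cell Ranger 4.0.0 on mm10, per the submitters' processing notes. The annotation release and the treatment of reads that match several genes are not given in the sources used here. Gene positions and transcripts are those of GENCODE M21 on GRCm38, in which 32158 of 32285 gene identifiers and all 67 members were found. For each member the protein-coding transcript with the longest stretch after the stop codon was used. UMI counts were summed over barcodes with at least 15000 UMIs and 1 to 20% mitochondrial UMIs, which left out 62, 1 and 8 barcodes of low mitochondrial share and held 87.3%, 92.8% and 92.9% of all UMIs in control, 3 h and 6 h. The share of mitochondrial UMIs had medians of 4.58%, 3.52% and 2.89%. Sums were expressed as CPM. Log2 ratios used a prior of 0.5 counts, and a gene was over the floor where its 3 libraries averaged 10 CPM or more. With 1 library per group, no test was made, and past 2-fold was the call. Doublets were not removed.

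The members, the lists and the alternatives were chosen with earlier results of these data known. Named members were every H1 gene and, in each other class, the 4 of highest mean CPM and those of highest and lowest 6 h ratio over the floor, 27 in all; further members are named as overlapping copies or partners in a pair, for their stem-loop form, for a count of 0 in the control, as testis or replication-independent copies, or as the genes of a small cluster. Alternatives were TMM factors, mean UMIs per cell, minima of 2000 and 30000 UMIs, no mitochondrial limits, no barcodes above 2 times the median UMIs, subtraction of 10% free RNA, a prior of 5 counts, floors of 50 CPM and none, and other thinning depths. Another left out the 4 listed testis and replication-independent members. Protein identity between members was not computed. The ratio calculation was checked on simulated counts. Python 3.11.15, numpy 2.4.6, scipy 1.17.1, pandas 2.3.3, matplotlib 3.10.9 and, for TMM, edgeR 4.0.16 in R 4.3.3 were used.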

Additional observations from a re-analysis of the deposited data

Results flagged for a closer look

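Hist1h1b had opposite signs at the 2 times, with a log2 ratio to the control of 0.06 after 3 h and -0.70 after 6 h. The difference between these was not tested, with 1 library at each time, and the 3 h value was -0.12 with TMM factors.

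Histone transcripts were also present outside called cells. In barcodes of 10 to 100 UMIs, which were not counted as cells and served as the measure of free RNA, the family sums of 5022 CPM (3 h) and 6116 CPM (6 h) were above the 1695 CPM of the control. In barcodes between 100 and 2000 UMIs it summed to 1425, 4639 and 5567 CPM in control, 3 h and 6 h.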

How the results depend on the processing

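No paired analysis was possible because each group had 1 library. The family log2 ratio at 3 h, 1.24, was 1.07 with TMM factors, 1.51 with mean UMIs per cell, 1.25 at 30000 UMIs or more, 1.29 without mitochondrial limits, 1.21 without barcodes above 2 times the median, 1.22 with free RNA subtracted and 1.23 without the testis and replication-independent members. At 6 h, 1.33, the same settings gave 1.05, 1.44, 1.35, 1.37, 1.31, 1.29 and 1.31. Alternatives chosen after seeing the data gave 1.59 and 1.75, both without Hist1h2ap and without members that share over 50% of their end words. Of the 38 members, 30 and 31 were at least 2-fold higher, where 4.32% and 8.65% of all genes over the floor were. A floor of 50 CPM left 9 and 9, out of fewer members, so these counts do not compare with 30 and 31. With no floor, 48 of all 67 were past 2-fold at 6 h. The shares of all genes at these other floors are not given here. With TMM factors 28 of the 38 were past 2-fold at 6 h, without Hist1h2br (0.72), Hist1h4h (0.88) and Hist1h3a (0.91). Mean UMIs per cell gave 33 of the 38 at 3 h, with Hist1h1a (1.20), Hist1h1d (1.07) and Hist1h3a (1.18). Hist1h1b at 3 h turned to -0.12 and Hist1h3b at 6 h to -0.055 with TMM factors. Medians of 43, 96 and 99 histone UMIs per cell were 134, 378 and 344.5 without thinning and 89, 197.5 and 205 at 30000 UMIs. The 3 h median was thus below the 6 h median at both equal depths. It was above only without thinning, where the 3 h cells were deeper (medians of 51726 and 46200 UMIs). Of 734 alternative values, 2 reversed, 276 moved beyond counting error and 456 did not. Besides the counting error, variation between cultures could not be measured.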
